A study of Homo sapiens with 20 samples.

Results

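This comparison set 4 CMC-treated libraries from NME6 knockout cells against 3 from RPUSD4 knockdown cells, position by position along the mitochondrial genome. A position was taken in when its deposited score averaged 1 or more over these 7 libraries, and 218 of 16570 listed positions met this rule. All cells were K562, a human leukaemia line, and mitochondrial RNA was treated with 0.5 M CMC. The 7 libraries are among 14 CMC libraries with a profile (20 samples in all). The other 7 came from wild-type cells with a non-targeting guide (control, 4) and from NME6 knockout cells that received a wild-type NME6 cDNA (rescued, 3), and they are given only for reference. The labels do not say how RPUSD4 was knocked down, whether the knockout is a clone, or whether replicates were separate cultures, and the p-values therefore reflect library-to-library spread alone.

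Pseudouridine is an isomer of uridine that pseudouridine synthases make within a finished RNA chain. CMC, a carbodiimide, stays attached to pseudouridine and disturbs reverse transcription there. RPUSD4 is such a synthase of mitochondria. It modifies the 16S rRNA of the large ribosomal subunit and has been reported to act on mitochondrial tRNA-Met and tRNA-Phe. PUS1 is a different synthase, which modifies position 27 of several tRNAs. NME6 belongs to the nucleoside diphosphate kinase family and is found in mitochondria.

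The score is a signed difference between CMC and untreated RNA, and its size was taken as percentage points of altered reads, which no header states. The depth behind a score is unknown, and a score of exactly 0 can stand for a position without reads. Between 42.7% and 68.2% of positions were listed at 0 in a knockout library and between 46.01% and 60.9% in a knockdown library. Knockout replicate 1 stood apart, with 68.2% at 0 and a median score of 0.416 over the 218 positions, against 1.14 to 1.30 in the other knockout libraries. Libraries of one group held identical negative scores (101 to 179 positions per pair in the knockout, 291 to 512 in the knockdown) and none were shared across the groups. It thus appears that each group had a single untreated profile subtracted, whose error is not in the spread between replicates. The labels list 2 untreated libraries for the knockout and 1 for the knockdown, and a difference between the untreated profiles cannot be told apart from one between the CMC-treated RNAs. Position numbers were taken to be those of the GRCh38 mitochondrial genome, and no base is given, so a position need not be a uridine.

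The 3 sites with the highest scores separated the groups, and not in the same direction. The known RPUSD4 site in 16S rRNA and a site in the COX1 mRNA stood higher in the NME6 knockout, and position 27 of tRNA-Leu(UUR) stood higher in the RPUSD4 knockdown. The 16S rRNA site passed the test, as 1 of 218 positions (0.459%), and the other sites did not, although no knockout library overlapped a knockdown library at any of the 3. No other position averaged 5 or more over the 7 libraries, and the next highest mean was 4.40. At most of the mRNA positions the groups overlapped, and the median size of a difference there was 0.228.

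Position 3067 is base 1397 of the 16S rRNA gene RNR2 (3067 lies within 1671 to 3229), the base that RPUSD4 modifies. The knockout libraries scored 17.5, 15.4, 14.3 and 13.3, and the knockdown libraries scored 9.25, 10.2 and 9.30. Every knockout library was above every knockdown library, and the knockdown values lay close together. The means were 15.1 ± 1.81 (SD, n = 4) and 9.59 ± 0.549 (SD, n = 3), so the knockdown held 63.4% of the knockout score. The difference was 5.54, with an SE of 0.944 and a 95% interval from 3.47 to 7.61, and it passed the test (limma Benjamini-Hochberg adjusted p = 0.0203). Control libraries scored 13.8 to 15.8 and rescued libraries 22.1 to 23.3, so the knockout mean lay within the control range and the knockdown libraries below it. The call was lost when only these 7 libraries gave the spread (limma adjusted p = 0.323), when libraries were scaled to one background level (limma adjusted p = 0.493), and without knockout replicate 3 or knockdown replicate 1 (limma adjusted p = 0.0624 and 0.0900). The exact permutation test gave p = 0.0571, the smallest that 4 against 3 libraries allow.

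The bases next to 3067 scored far lower. Those before it averaged 0.764 (3065) and 0.874 (3066) in the knockout against 0.454 and 0.501 in the knockdown. The base after it averaged 0.0567 and 0.0487. Of the 18 positions of 16S rRNA, 8 were higher and 10 lower in the knockout, with a median difference of -0.0651, and 17 of the 18 differed by less than 1. Their median level was only 1.11, and the median size of a difference was 0.207. Among these 18, base 947 (position 2617) was the only other one at which the groups did not overlap, with knockout scores of 0.318 to 1.061 and knockdown scores of 1.063 to 1.4999. It reached a mean of 1 only in the knockdown, where it is high, and it was named after its values were seen.

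The other reported RPUSD4 sites could hardly be read. In tRNA-Phe, position 616 (gene TRNF, conventional position 39) was listed at 0 in all 14 CMC libraries. In tRNA-Met, position 4447 (TRNM, conventional position 50) scored 8.33 in knockout replicate 1 and 0 in the other 6 libraries. Neither gives a comparison between the groups.

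Position 3258 lies in TRNL1 (3230 to 3304), which encodes tRNA-Leu(UUR). It is base 29 of the gene and conventional tRNA position 27, a known PUS1 site. The knockout libraries scored 10.5, 15.4, 6.93 and 8.93, and the knockdown libraries 23.4, 17.7 and 24.2. The lowest knockdown library was above the highest knockout library. The knockout mean of 10.4 ± 3.599 (SD, n = 4) was 47.9% of the knockdown mean of 21.8 ± 3.53 (SD, n = 3). The difference was -11.4 (SE 2.51, 95% interval -16.9 to -5.85) and missed the threshold, with a limma Benjamini-Hochberg adjusted p of 0.0609 and an exact permutation p of 0.0571. It passed in 10 of 22 alternative fits, among them a fit of only 3 positions and a filter added after seeing the data. The direction was the same in all 22, but fits that changed only the filter or variance model kept the same difference. Leaving out a library could not turn it either, as the groups did not overlap. Control libraries averaged 19.7 and rescued libraries 19.2, so here the knockout mean was the low one of the 4 groups. Over the whole of TRNL1, 85.3% of scores were listed at 0 in the knockout and 88.4% in the knockdown. The control and rescued libraries had 65.0% and 60.9%. The number of reads behind the scores at 3258 is unknown, and whether thin reading had a part in the difference was not tested.

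In TRNL1, 4 of 5 positions were lower in the knockout. Bases 51 and 52 averaged 1.24 and 1.24 in the knockout and 2.79 and 2.76 in the knockdown, with overlapping libraries. Position 3257, next to the high site, scored 5.26, 0.282, 0 and 0 in the knockout and 1.99, 0 and 0 in the knockdown. That neighbour showed no separation.

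Position 6293 is base 390 of COX1 (5904 to 7445), whose mRNA encodes the catalytic subunit of cytochrome c oxidase. The knockout libraries scored 20.6, 14.9, 14.5 and 14.2, and the knockdown libraries 7.66, 6.72 and 6.98. All knockout libraries were above all knockdown libraries, with knockout replicate 1 the highest. The means were 16.05 ± 3.06 (SD, n = 4) and 7.12 ± 0.488 (SD, n = 3), so the knockout held 225% of the knockdown score. The difference was 8.93 (SE 3.002, 95% interval 2.35 to 15.5) and did not pass, with a limma Benjamini-Hochberg adjusted p of 0.190 and an exact permutation p of 0.0571. The trend in the fit set the spread at this position to an SD of 3.93, above its own SD of 2.33 over the 14 libraries. It passed in 7 of 22 alternative fits, among them the one with no variance trend (limma adjusted p = 0.0264). The 7 also include a fit of only 3 positions, those with a mean of 5 or more. They include the filter of a mean of 1 in both groups, which was added after seeing the data. Control libraries averaged 9.001 and rescued libraries 7.42, so the knockout mean was the high one of the 4 groups.

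The neighbouring COX1 position 6292 scored 3.04, 2.18, 1.17 and 2.43 in the knockout and 1.23, 1.43 and 1.67 in the knockdown, and the groups overlapped. COX1 held 20 positions, 12 higher and 8 lower in the knockout. Position 6762 of the same mRNA averaged 2.21 ± 0.305 in the knockout and 1.997 ± 0.213 in the knockdown, a difference of 0.215 (95% interval -0.405 to 0.835).

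**Figure D1:**
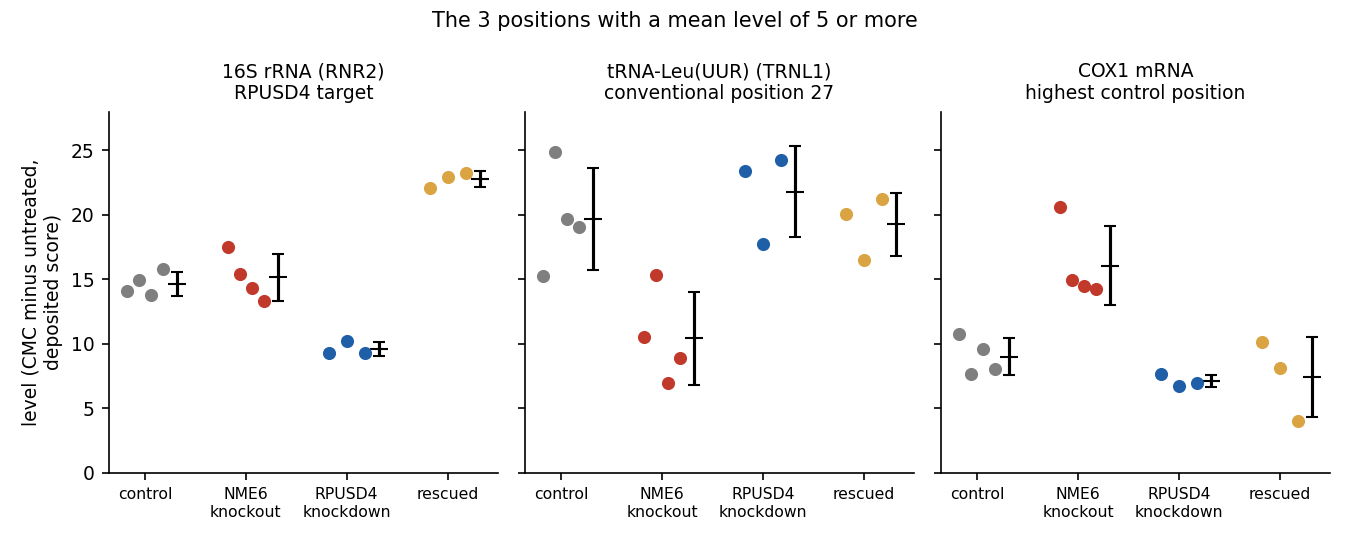
Deposited CMC score (vertical axis, signed difference between CMC and untreated RNA) at the 3 highest positions, in 16S rRNA (3067), tRNA-Leu(UUR) (3258) and COX1 (6293), with a point for each library of the 4 groups and, beside the points, the group mean with bars of 1 SD. At 3067 and 6293 the 4 knockout libraries sit above the 3 knockdown libraries, and at 3258 they sit below them.

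The order of the 3 sites within a library also differed between the groups, a comparison that does not depend on a common scale between libraries. In all 3 knockdown libraries, as in all 4 control libraries, the tRNA-Leu(UUR) site was highest, then 16S rRNA, then COX1. In knockout replicates 1, 3 and 4 the order was COX1, 16S rRNA, tRNA-Leu(UUR). Knockout replicate 2 had 16S rRNA first and COX1 last, with the 3 scores between 14.9 and 15.4. All 3 rescued libraries had this order too.

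The ratio of the tRNA-Leu(UUR) score to the 16S rRNA score was 0.688 ± 0.221 (SD, n = 4) in the knockout and 2.29 ± 0.482 (SD, n = 3) in the knockdown. The ratio of COX1 to 16S rRNA was 1.06 ± 0.0905 in the knockout and 0.745 ± 0.0860 in the knockdown. The ratio of COX1 to tRNA-Leu(UUR) was 1.65 ± 0.500 in the knockout, with a lowest value of 0.970, and 0.331 ± 0.0453 in the knockdown, with a highest value of 0.378. No ratio overlapped between the knockout and the knockdown. The rescued libraries had tRNA-Leu(UUR) over 16S rRNA at 0.718 to 0.911, inside the knockout range, and the control libraries had 1.08 to 1.67. Each gave an exact permutation p of 0.0571, the smallest possible, also after Benjamini-Hochberg adjustment over the 3 ratios. The ratios are built from the same values as the 3 differences.

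**Figure D2:**
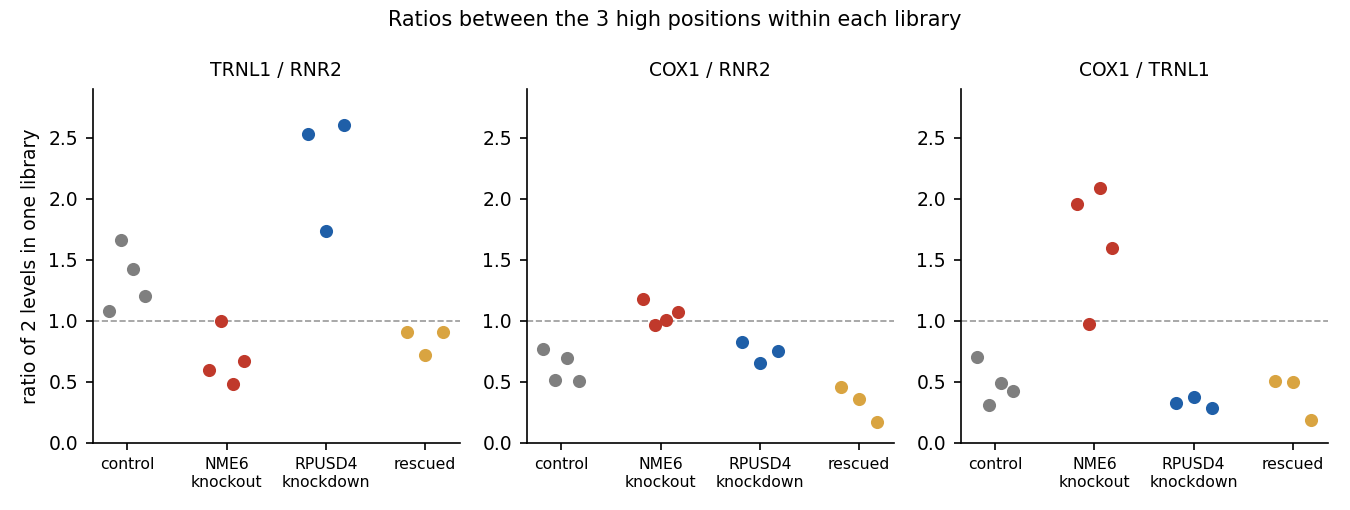
Ratios between the scores at the 3 highest positions within each library (vertical axis, no unit), with a point for each library of the 4 groups and a dashed line at 1. The knockout and knockdown points do not overlap in any of the 3 ratios, and tRNA-Leu(UUR) (TRNL1) over 16S rRNA (RNR2) runs from 0.483 to 0.998 in the knockout and from 1.74 to 2.61 in the knockdown.

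Over all 218 positions, 107 were higher and 111 lower in the knockout, with a median difference of -0.0229. The direction of many was set by the rule itself: 60 positions reached a mean of 1 through the knockout alone and 62 through the knockdown alone, and 96 reached it in both groups. The groups did not overlap at 18 positions (8.26%), 7 higher (3.21%) and 11 lower (5.05%). Of the 7 higher, 5 reached the rule's level through the knockout alone, and of the 11 lower, 7 reached it through the knockdown alone, so that their direction was a condition of entry. For such positions the scores below are a description and no p-value is given. Among all 12634 positions with any value other than 0 in these libraries the share was 7.11% (4.24% higher and 2.87% lower), so the members' share is near the background. An unadjusted limma p under 0.05 was found at 20 of the 218 positions, against 1174 of 14928 with no level filter, a similar share. With no level filter 0.509% of positions passed the adjusted test. The variance trend of that fit gave the COX1 site an SE of 303, against 3.002 in the main fit. At position 307 the SE was 534 against 5.70, and at the 16S rRNA and tRNA-Leu(UUR) sites it stayed near the main value. Some of the highest positions could thus hardly pass, so the shares passing with no level filter give no sound background for the 218. The member closest to the rule's limit from inside was position 11131 (ND4, mean 1.0007), and the closest from outside was 3791 (ND1, mean 0.9999).

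Scores that stayed up in every library were few. At 12 positions each of the 7 libraries reached 1: the 3 sites above and 9 positions in mRNAs, in ND1, ND2, COX1 (3 positions), COX3, ND3, ND5 and ND6. The groups overlapped at each of these 9, which had means of 1.43 to 2.52 and differences of -0.0354 to 0.763. In COX3, position 9478 averaged 2.56 ± 0.430 in the knockout and 2.47 ± 0.399 in the knockdown, a difference of 0.0812 (95% interval -1.01 to 1.18).

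The mRNAs held 104 of the 218 positions, in all 13 protein-coding genes. Of these, 55 were higher and 49 lower in the knockout, with a median difference of 0.0295, and 96 differed by less than 1. Their median level over the 7 libraries was only 1.21, so a difference under 1 can still be large for its position. The median size of a difference was 0.228. Most of the 104 were read in every library: 93 had no 0 among the 7. The groups did not overlap at 5 (4.81%), below the share over all members. Positions in mRNAs of complex I (NADH dehydrogenase) split into 33 higher and 33 lower, those of complex IV into 16 and 12, and those of ATP synthase into 3 and 3. Complex III has a single mitochondrial gene, CYTB, with 3 positions higher and 1 lower.

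Genes of complex I did not all lean one way. ND5 had 14 of 16 positions higher in the knockout (median difference 0.210), which became 10 after scaling and 9 without knockout replicate 4. ND4 had 4 of 13 higher, which became 9 without knockout replicate 1. Part of both counts was fixed by entry. In ND5, 5 positions had entered through the knockout alone and 2 through the knockdown alone, and in ND4 2 and 3. Over all positions of ND5 the knockout averaged 0.150 ± 0.0344 (SD) and the knockdown 0.138 ± 0.0296. For ND4 these were 0.156 ± 0.0382 and 0.168 ± 0.0279. No single position of either gene passed the test. In ND5, position 13302 scored 1.46, 1.63, 0.863 and 1.55 in the knockout and 0.839, 0.236 and 0.712 in the knockdown. The groups were separate there by a small gap, and the position had entered through the knockout alone. The position with the largest difference in ND5, 12418, scored 3.42, 1.25, 0.550 and 2.73 against 1.18, 0.468 and 0.729, and its groups overlapped. It too had entered through the knockout alone.

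In CYTB, position 15395 (base 649) scored 1.52, 1.68, 1.37 and 1.52 in the knockout and 0.822, 1.17 and 0.401 in the knockdown. The knockout libraries lay close together and above all knockdown libraries, at a position that had entered through the knockout alone. In ND4, position 10880 (base 121), which reached the level in both groups, went the other way, with 0.669, 1.74, 1.18 and 0.587 in the knockout and 3.23, 2.01 and 2.23 in the knockdown, a difference of -1.44 (SE 0.412, limma Benjamini-Hochberg adjusted p = 0.0852). In ATP6, which encodes a subunit of ATP synthase, position 8638 also reached the level in both groups and scored 0.571 to 1.38 in the knockout and 1.45 to 2.23 in the knockdown, a difference of -0.753 (limma Benjamini-Hochberg adjusted p = 0.501). These positions were separated between the groups, and none passed the test.

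Of 101 mRNA members that could be placed in a codon, 40 (39.6%) were at the first base, 34 (33.7%) at the second and 27 (26.7%) at the third. All mRNA positions divide at about 33.3% each, and the difference was not tested. Adjacent members are not independent: the 218 positions formed 156 separate places, 50 of them runs of 2 to 6 adjacent positions, and 48 of these 50 ran in one direction.

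**Figure D3:**
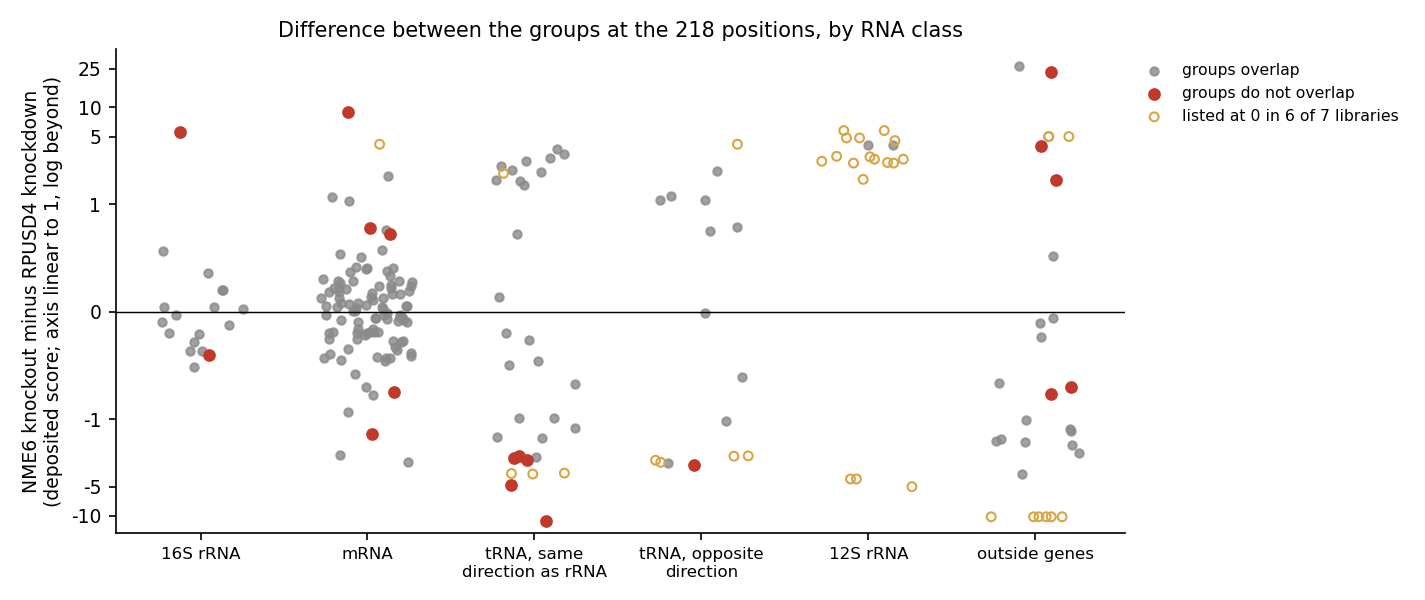
Difference between the groups (vertical axis, knockout minus knockdown in score units, linear to 1 and logarithmic beyond) for each of the 218 positions, by RNA class (horizontal axis). Grey points mark groups that overlap, red points groups that do not, and open points positions listed at 0 in 6 of 7 libraries; most mRNA and 16S rRNA points lie within 1 of zero, and 12S rRNA is made almost wholly of open points.

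tRNA positions differed by more and were read less evenly. There were 48, in 18 of the 22 tRNA genes, of which 20 were higher and 28 lower in the knockout (median difference -0.475). Of these, 18 entered through the knockout alone, 17 through the knockdown alone and 13 through both, so most of these directions were fixed by the rule. The median size of a difference was 2.12 among tRNAs encoded in the same direction as the rRNAs, against 0.228 in mRNAs. The sizes also depend on the rule, since a position at 0 in most libraries needs a large score elsewhere to average 1. Of the 48 tRNA positions, 19 were at 0 in 4 or more of the 7 libraries, against 2 of the 104 in mRNAs. The groups did not overlap at 6 of 48 (12.5%), against 8.26% of all members and 7.11% of all positions with a value. All 6 were lower in the knockout, but 5 of them had entered through the knockdown alone, and 3258 is the one that reached the level in both groups. Between 75.3% and 89.02% of positions in the tRNA genes running in the direction of the rRNAs were listed at 0 in a knockout library, and between 75.2% and 84.1% in a knockdown library. Whether missing reads had a part in these differences was not tested.

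Besides 3258, the most evenly read separated tRNA positions were adjacent bases of TRNR, the tRNA-Arg gene (10405 to 10469). Position 10408 (base 4) scored -0.267, 1.10, 1.19 and 1.499 in the knockout and 3.02, 2.85 and 4.36 in the knockdown. Position 10409 (base 5) scored -0.268, 1.16, 1.23 and 1.54 against 3.06, 2.99 and 3.86. Knockout replicate 1 was the lowest at both, and every knockdown library was above every knockout library. Both positions had entered through the knockdown alone, with knockout means of 0.880 and 0.913, so their direction was set by the rule. Control libraries averaged 1.59 and 1.61 there.

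At 3 further tRNA positions, which had entered through the knockdown alone, the knockout was listed at or near 0, which can mean missing reads. In TRNK (tRNA-Lys), position 8316 scored 0, 0, 0.294 and 0 in the knockout and 3.06, 3.22 and 8.28 in the knockdown. In TRNP (tRNA-Pro), position 15989 (base 35) was listed at 0 in all 4 knockout libraries and scored 4.81, 0.909 and 3.33 in the knockdown. In TRNL2 (tRNA-Leu(CUN)), position 12326 scored 0, 0, 0.171 and 0 against 1.45, 0.429 and 6.25. Control libraries ranged from 0 to 2.31 at 8316, from 0 to 2.08 at 15989 and from 0 to 0.839 at 12326.

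tRNA positions that were higher in the knockout overlapped the knockdown, and the 3 named here had entered through the knockout alone. In TRND (tRNA-Asp), position 7523 scored 9.52, 1.85, 1.09 and 1.64 in the knockout and 1.20, 0.297 and 0 in the knockdown. In TRNV (tRNA-Val), a tRNA that is also a structural part of the mitochondrial ribosome, position 1616 scored 0, 6.25, 8.65 and 0 against 0 in all knockdown libraries. In TRNS1, a tRNA-Ser gene, all 3 members were higher, and position 7510 had the largest difference, 1.20, which turned to -0.0137 with library weights.

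**Figure D4:**
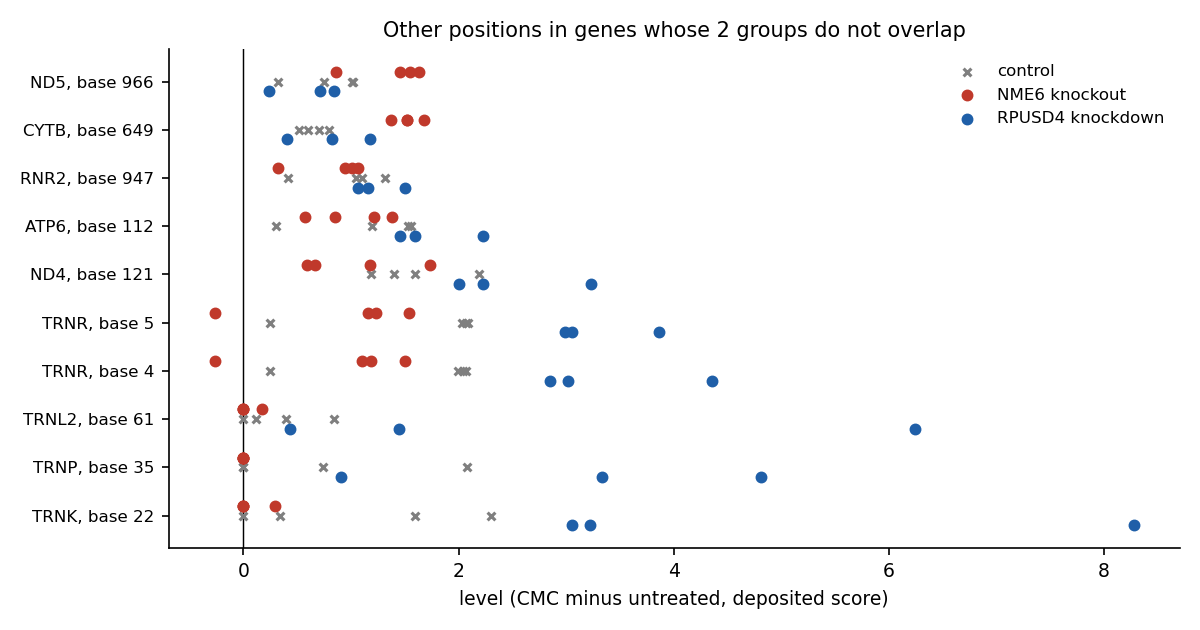
Deposited CMC score (horizontal axis) in each control, NME6 knockout and RPUSD4 knockdown library at the other 10 positions in genes where the knockout and knockdown groups do not overlap, 1 position per line, with a point or cross for each library. In ND5 and CYTB the knockout libraries lie above the knockdown libraries, and at the other 8 positions they lie below them.

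The 12S rRNA of the small ribosomal subunit gave no comparison. It held 19 positions, 16 higher and 3 lower in the knockout, with a median difference of 2.92. All 16 had entered through the knockout alone and all 3 through the knockdown alone. Moreover, 17 of the 19 were listed at 0 in 6 of 7 libraries. Knockout replicate 3 alone carried 8 of these, knockout replicate 4 carried 5, knockdown replicate 2 carried 2, and knockout replicate 2 and knockdown replicate 3 carried 1 each. Position 654, with 23.1 in knockout replicate 4 and 0 elsewhere, is the extreme case. Between 97.9% and 99.7% of the gene was listed at 0 in a knockout library and between 99.6% and 99.8% in a knockdown library. No position of 12S rRNA separated the groups. The same held for ND2 position 4559 and TRNN position 5696, each 16.7 in knockout replicate 1 and 0 in the other 6 libraries.

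Of 29 members outside genes, 28 lay in the control region, the noncoding stretch that holds the replication origin of the heavy strand and the promoters. Of the 29, 8 were higher and 21 lower in the knockout, and 18 of the 21 lower ones had entered through the knockdown alone and 7 of the 8 higher ones through the knockout alone. The groups did not overlap at 5 (17.2%), against 7.11% of all positions with a value, and position 177 is the one of these 5 that reached the level in both groups. Position 307 scored -1.34, 18.8, 19.2 and 19.5 in the knockout and -5.29, -7.77 and -15.1 in the knockdown. Knockout replicate 1 was far below the other knockout libraries but above all knockdown libraries. At 306 the knockout scored 1.07, 4.19, 3.83 and 3.65 and the knockdown -0.780, 0.735 and -2.27. Both positions had entered through the knockout alone.

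Scores of opposite sign went on beside these positions. Position 308 scored -3.88, 22.8, 20.1 and 22.3 in the knockout and -3.14, -10.6 and -21.6 in the knockdown, and there knockout replicate 1 fell within the knockdown range. Negative scores mean that the untreated RNA scored above the CMC-treated RNA. The control libraries at 307 ranged from -9.44 to 6.25. This stretch of the control region is known for a run of cytosines that varies in length and is hard to sequence, and its part in the scores was not tested.

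Other control-region positions showed a smaller gap or rested on 1 library. Position 176 scored 0.373 to 0.981 in the knockout and 1.39 to 1.58 in the knockdown, and it had entered through the knockdown alone. Its neighbour 177 was also separated, with a difference of -0.702 (limma Benjamini-Hochberg adjusted p = 0.507). Position 16104 scored 4.67, 0.566, 1.39 and 0.422 in the knockout and 0 in all knockdown libraries, and it had entered through the knockout alone. Positions 459 to 464 each scored 30.8 in knockdown replicate 2 and 0 in the other 6 libraries, which placed all 6 among the 10 highest means.

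**Figure D5:**
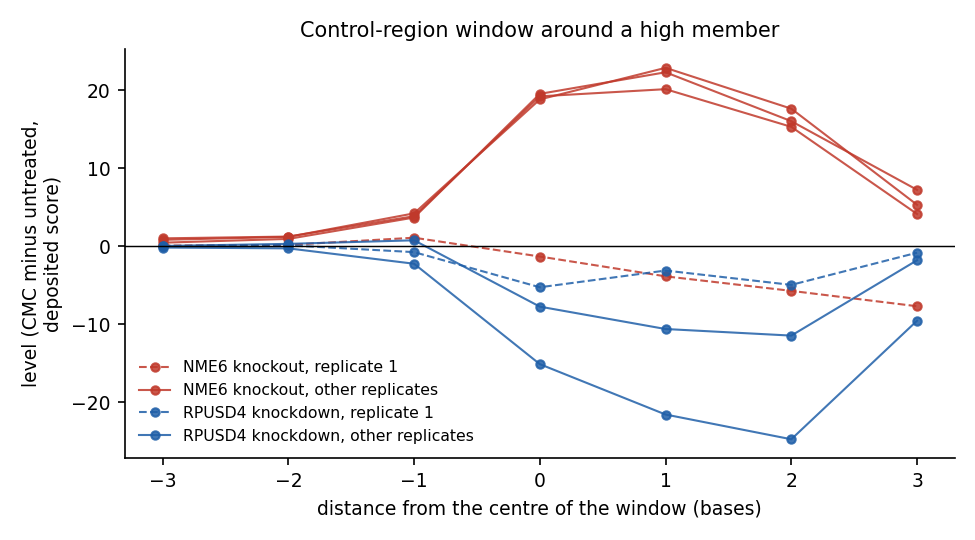
Deposited CMC score (vertical axis) against distance in bases from position 307 of the control region (horizontal axis), with a line for each knockout and knockdown library, dashed for replicate 1. At the centre knockout replicates 2 to 4 score 18.8 to 19.5, and the 3 knockdown libraries and knockout replicate 1 are below 0.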

How the data were processed

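Per the labels' protocols, RNA of mitochondria isolated from K562 cells was treated with CMC before stranded libraries were prepared. Tools named in the submitters' processing notes are STAR, SAMtools and Trimmomatic (no versions), with GRCh38 and hg38 as builds. The way altered reads were counted is not given in those notes or the labels. The authors deposited 1 signed score per position and CMC library, with no unit, depth or base, per the file headers. Untreated samples (6) entered only through these differences and were not analysed here on their own.

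Scores were used as deposited. Positions were assigned to 37 genes with RefSeq coordinates of GRCh38. Positions averaging at least 1 over the 7 libraries entered limma 3.58.1 under R 4.3.3 (empirical Bayes with a variance trend), with the spread estimated over all 14 libraries, two-sided, and Benjamini-Hochberg adjusted over 218 positions at 0.05. Intervals are 95% and unadjusted. Exact two-sided permutation tests used scipy 1.17.1. Tables were made with pandas 2.3.3 and numpy 2.4.6 and figures with matplotlib 3.10.9, in Python 3.11.15. The limma fit was checked on simulated data.

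Named positions were those past the threshold, the known RPUSD4 and PUS1 sites, the highest control position of COX1, the 10 highest means, up to 10 separated positions in each direction, and the largest difference in each gene with 3 or more members. Members, lists and tests were chosen with earlier results of these data known. Alternatives were other level filters, variance models, scales and weights, and leaving out libraries. Requiring a mean of 1 in both groups was added after seeing the data. Replicate numbers did not pair the groups: deviations of same-numbered libraries correlated at -0.228, 0.0155 and -0.0468.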

Additional observations from a re-analysis of the deposited data

Results flagged for a closer look

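At 9 of the named positions 1 of the 4 knockout libraries lay far from the other 3 (its gap to the nearest was above Dixon's critical value for 4 samples). Chance alone gives this in about 1 of 20 unselected groups, and zeros in the other libraries make it more likely. The positions were named partly for a large difference or a high mean, which favours scores carried by 1 library. That rate is therefore no fair reference for the 9. Knockout replicate 1 was the outlying library at 6 of the 9. It was low at control-region position 307 (-1.34) and high at COX1 position 6293 (20.6), TRND position 7523 (9.52), TRNM position 4447 (8.33), and ND2 position 4559 and TRNN position 5696 (16.7 each). At 12S rRNA position 654 it was replicate 4 (23.1, with 0 in the others). At TRNK position 8316 and TRNL2 position 12326 it was replicate 3, with 0.294 and 0.171 against 0. Without knockout replicate 1 the difference at 6293 was 7.40. Control replicate 1 also differed from its group, with 58.9% of positions at 0 against 32.4% to 34.2% in the other control libraries. At 307 that library scored -9.44 against 4.16 to 6.25 in the other controls, and at 7523 7.89 against 1.35 to 2.14. At 4447 and 4559 it was listed at 0.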

How the results depend on the processing

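How many of the positions passed depended on the fit. Against 1 of 218 positions, 5 of 149 passed among positions averaging 1 over all 14 libraries, and 3 of 3 with a mean of 5 or more. A median of 1 or more gave 6 of 151, and a mean of 1 in both groups gave 3 of 96. With no level filter 76 of 14928 passed, a share of 0.509% against 0.459% for 1 of 218. The variance trend of that fit gave some of the highest positions very large SEs, so these shares are not a fair comparison. Exact zeros as missing gave 8 of 157, and leaving out positions outside genes gave 5 of 189. Of the same 218, 5 passed with no variance trend, 2 with a robust fit and 5 on the signed log2 scale. Library weights gave 7, and leaving out knockout and control replicate 1 gave 6. None passed when only the 7 libraries gave the spread or after scaling libraries (limma). An unadjusted limma p under 0.05 was found at 14 and 20 positions there, against 20 in the fit as reported. Leaving out 1 library gave 0 to 4 positions past the threshold, with 0 without knockout replicate 3 or knockdown replicate 1.

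The 3 highest sites kept their direction in every one of the 22 alternatives, which could hardly have come out otherwise. Many alternatives refit the same values, and without overlap between the groups leaving out a library cannot turn a direction. The alternative with a mean of 5 tested only 3 positions, and a mean of 1 in both groups was added after seeing the data. At 3067 the difference was 5.54 and lost the call with only the 7 libraries in the fit, and was 6.64 and lost it after scaling. It was 4.75 to 6.16 with 1 library left out, and 18 of 22 alternatives passed. At 3258 the difference stayed at -11.4 and passed with the mean over 14 libraries, a mean of 5, the median filter, no variance trend, zeros as missing, positions outside genes left out, and a mean of 1 in both groups, and it was -1.03 and passed on the signed log2 scale. It was -13.4 to -10.1 with 1 library left out. At 6293 the difference stayed at 8.93 and passed with a mean of 5, the median filter, no variance trend, the robust fit, positions outside genes left out, and a mean of 1 in both groups, and it was 1.06 and passed on the signed log2 scale. It was 7.40 to 9.54 with 1 library left out. With no level filter its limma adjusted p was 1, but its SE was then 303, against 3.002 in the main fit. That fit could therefore not test this site.

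With the replicate number as a block, 4 positions passed, but the numbers did not pair the libraries: none of the 3 knockdown libraries correlated best with the knockout library of its own number. The difference was then 5.66 at 3067, -11.0 at 3258 and 9.40 at 6293.

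Of the single positions, 5 results reversed. Position 7510 was -0.0137 with library weights, 9833 was 0.244 with library weights and 0.585 without knockdown replicate 3, (range with 1 library left out -1.76 to 0.585), and 14178 was 0.151 with library weights and 0.0111 without knockdown replicate 2 (range -0.341 to 0.0111). Another 32 results passed the threshold under an alternative, and 531 neither passed nor reversed. All 32 were at positions that had entered through the knockout alone or the knockdown alone. Their direction was a condition of entry, so these passes do not count as evidence for a difference. Some of these 531 differences became 0 when the library that carried them was left out. This held at 459 to 464 without knockdown replicate 2 and at 654 without knockout replicate 4. It also held at 4447, 4559 and 5696 without knockout replicate 1.

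Counts by RNA class moved with the level filter. With a median of 1, 13 positions of 16S rRNA were higher, 0 of 12S rRNA were higher and 0 lower, and tRNAs running with the rRNAs had 2 higher and 8 lower. The tRNAs running the other way then had 1 higher and 2 lower, and positions outside genes 1 and 3. With the mean over 14 libraries, 12S rRNA had 1 lower, tRNAs running the other way 4 higher and 5 lower, mRNAs 35 and 29, and positions outside genes 10 lower. With 1 library left out, higher counts ran from 5 to 13 in 16S rRNA, 8 to 16 in 12S rRNA, 11 to 15 and 5 to 9 in the tRNA classes, 47 to 70 in mRNAs and 5 to 16 outside genes. Lower counts ran from 5 to 13, 1 to 3, 14 to 20 and 7 to 11, 33 to 57, and 13 to 21. The cause of these shifts was not tested.

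Read depth is unknown, so no counting error is given, and the error of the untreated profiles is in none of these tests.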
